A study of Mus musculus with 5 samples.

Results

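The chemokines considered here are 10 genes whose products can be secreted by, or held on the surface of, tumour cells: Ccl2, Ccl5, Ccl7, Ccl20, Cxcl1, Cxcl3, Cxcl5, Cxcl10, Cxcl16 and Cx3cl1. They were found by gene symbol in the deposited count table, in which 8 of the 10 had an entry among 13143 genes. Ccl7 and Cxcl3 had no entry, and since the table lists only genes with at least 6 counts in some library, no level is given for them. All 8 listed chemokines passed the low-count filter and were among the 11975 genes tested.

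Chemokines are small proteins that guide leukocytes along concentration gradients by way of G protein-coupled receptors. Most are soluble and are held on heparan sulphate of the cell surface, whereas CXCL16 and CX3CL1 are made as transmembrane proteins on a mucin stalk that ADAM proteases can cut. Many chemokine genes are switched on by NF-kappaB or interferon signalling, and their mRNAs are short-lived. TAZ, the product of Wwtr1, is a transcriptional co-activator of the Hippo pathway that acts mainly through TEAD factors.

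RNA sequencing of 5 untreated cultures of 4T1, a mouse mammary carcinoma line, was compared between 3 WT libraries and 2 TAZ-KO libraries, to find the genes whose expression changes in cultured tumour cells when TAZ is lost. All cultures carried Cas9. The WT controls were single-cell clones without a guide RNA, and the TAZ-KO libraries came from clones made with a lentiviral guide against Wwtr1 and puromycin, so vector, selection and founder clone cannot be told apart from loss of TAZ. Both TAZ-KO clones carry the same guide, and their column names in the table contain YAP, while titles and genotypes say TAZ knockout. Each library is 1 clone, and the replicate numbers of the labels name the clones below.

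Levels are given in CPM, a read count relative to the size of its library after TMM scaling, which evens out library composition. Totals ran from 14695384 to 16452147 counts, at which 3 counts, the limit that a count of 0 allows, came to 0.184 to 0.203 CPM. Wwtr1 itself had 659.7, 312 and 315 CPM in WT clones 1 to 3, against 129 and 152 CPM in the TAZ-KO clones, with no overlap between the groups. By the edgeR quasi-likelihood test its log2 fold change was -1.61 (SE 0.40, adjusted p = 0.19), not called at an adjusted p of 0.05. WT clone 1 stood apart from the other WT clones: the mean chi-square per gene between a pair of libraries was 192.3 for WT clones 1 and 2, 189.9 for WT clones 1 and 3, 20.98 for WT clones 2 and 3 and 39.8 for the TAZ-KO clones. The tests of the chemokines, and those of the named pathway genes whose call changes, are therefore given with and without WT clone 1. The 6 epithelial markers were all listed, with summed levels of 1692 to 3921 CPM in WT and 2899 to 3001 CPM in TAZ-KO. The keratin genes Krt8 and Krt18 were low in WT clones 2 and 3 only. Krt8 stood at 1328, 271 and 322 CPM in WT clones 1 to 3 and 932 and 1078 CPM in TAZ-KO. Krt18 stood at 2210, 787 and 813 CPM, then 1338 and 1574 CPM. The other epithelial markers did not share this pattern. Cdh1 was highest in WT clones 2 and 3 (245.8, 658 and 490.1 CPM in WT, 424.4 and 250.6 CPM in TAZ-KO). Epcam was low in TAZ-KO clone 2 too (91.55, 33.86 and 24.55 CPM, then 119.5 and 32.89 CPM). Krt19 was higher in TAZ-KO without overlap (41.64, 43.31 and 40.09 CPM, then 83.55 and 65.38 CPM). Cldn7 was lower (3.73, 2.82 and 2.53 CPM, then 0.859 and 0.267 CPM). Of 8 leukocyte markers, among them the T cell gene Cd3e, which had no entry, the 6 listed summed to 17.3 to 32.3 CPM in WT and 11.3 to 11.9 CPM in TAZ-KO. Most of this was Cd68, a lysosomal protein of macrophages (11.7, 30.1 and 15.8 CPM in WT clones 1 to 3 and 9.19 and 9.94 CPM in TAZ-KO), while Ptprc, which marks all leukocytes, had at most 0.542 CPM. Fibroblast markers (3 of 6 listed) summed to 29.9 to 120.5 CPM in WT and 90.3 to 92.1 CPM in TAZ-KO. Most of this was Pdgfra (117.3, 37.9 and 26.3 CPM in WT, 90.8 and 89.7 CPM in TAZ-KO). Like Krt8 and Krt18, Pdgfra was low in WT clones 2 and 3 only. Col1a1 was instead highest in WT clones 2 and 3 (1.83, 6.75 and 3.145 CPM in WT, 1.26 and 0.40 CPM in TAZ-KO). Col1a2 was lower in TAZ-KO without overlap (1.42, 0.552 and 0.370 CPM in WT, 0 and 0.267 CPM in TAZ-KO). These TAZ-KO levels of Col1a2 were near the limit of detection. Endothelial markers (2 of 4 listed) summed to at most 1.49 CPM. The part of such cells in the chemokine levels was not tested.

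The 250 bases before the RefSeq start site of Ccl20, Cxcl10 and Cxcl1 are shown because Ccl20 and Cxcl10 differed strongly between clones whereas Cxcl1 varied far less. The promoter table (RefSeq, GRCm38.p6) matched 5 of the 10 chemokines: Ccl20, Cxcl1, Cxcl3, Cxcl10 and Cx3cl1. Capitals mark matches on either strand to 4 sets of letters: kappaB (GGGA, any 4 bases, CC), TEAD (CATTCC), AP-1 (TGANTCA) and an interferon-type element (TTTC, any 2 bases, TTTC).
Ccl20, chr1:83116516-83116765, plus strand: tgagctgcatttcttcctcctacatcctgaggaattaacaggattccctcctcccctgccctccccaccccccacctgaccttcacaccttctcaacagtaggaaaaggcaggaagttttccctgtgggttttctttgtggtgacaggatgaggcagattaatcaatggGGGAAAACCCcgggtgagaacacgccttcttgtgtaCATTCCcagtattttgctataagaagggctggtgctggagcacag
Cxcl10, chr5:92348890-92349139, minus strand: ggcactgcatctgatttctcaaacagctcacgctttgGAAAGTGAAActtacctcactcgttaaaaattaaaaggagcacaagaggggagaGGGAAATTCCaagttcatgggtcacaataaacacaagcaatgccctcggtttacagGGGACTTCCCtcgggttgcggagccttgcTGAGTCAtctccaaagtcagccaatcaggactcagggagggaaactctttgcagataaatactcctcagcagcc
Cxcl1, chr5:90890995-90891244, plus strand: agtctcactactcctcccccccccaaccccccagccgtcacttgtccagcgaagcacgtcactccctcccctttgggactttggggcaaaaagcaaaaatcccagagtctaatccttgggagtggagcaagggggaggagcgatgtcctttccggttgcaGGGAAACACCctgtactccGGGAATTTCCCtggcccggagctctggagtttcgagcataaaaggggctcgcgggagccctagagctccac

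Positions below count bases from the start site, negative before it, and give the first base of the match. Ccl20 held 1 kappaB match at -81 and 1 TEAD match at -45. Cxcl10 held kappaB matches at -159 and -103, an AP-1 match at -74 and an interferon-type match at -213. Cxcl1 held 3 kappaB matches, at -90, -71 and -70, of which the last 2 overlap. Among the promoters not printed, Cxcl3 held 2 overlapping kappaB matches at -73 and -72 and a TEAD match at -245, and Cx3cl1 held no match to any of the 4 sets in this window. In the 32851 mouse promoters of 300 bases, 20.7% held a kappaB match, 14.7% a TEAD match, 7.81% an AP-1 match and 3.44% an interferon-type match. A kappaB match was present in the promoters of Ccl20, Cxcl10 and Cxcl1. Whether any of these matches is used in these cells was not tested.

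**Figure D1:**
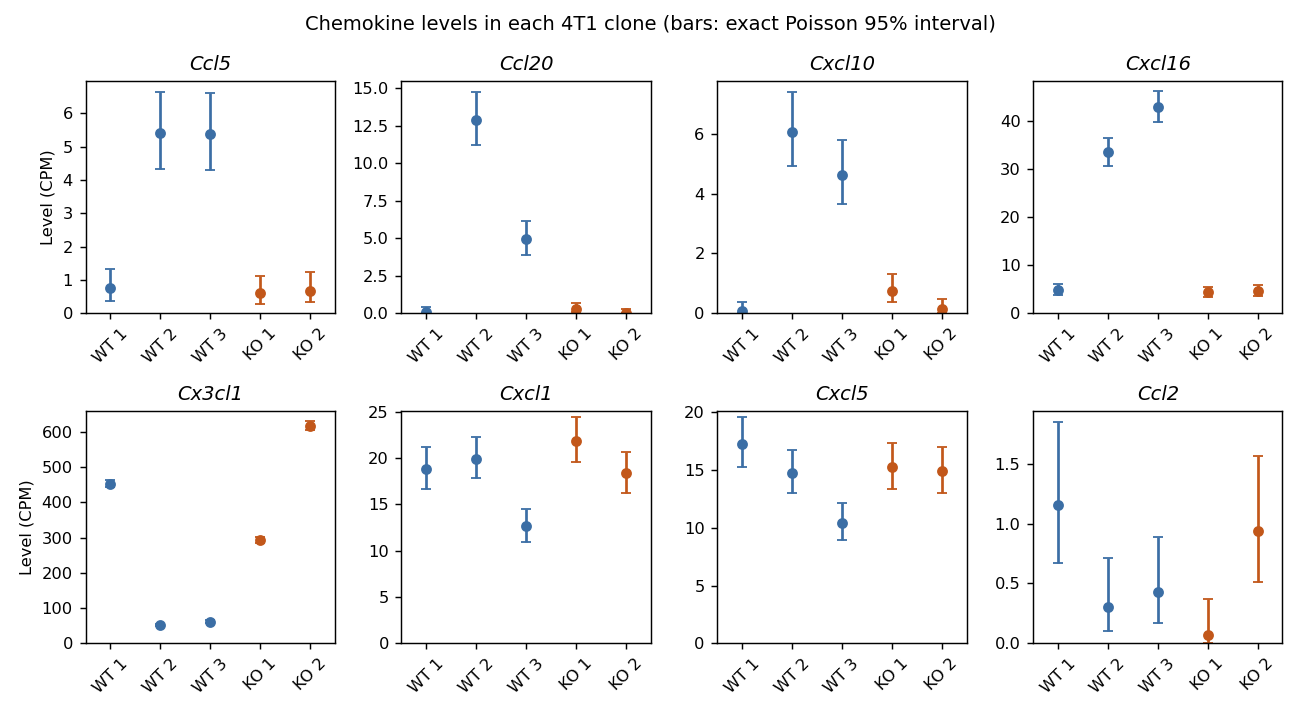
Level of each of the 8 listed chemokines in each library (CPM, linear axes from 0 that differ between panels; blue WT, orange TAZ-KO; points are single clones, numbered as in the labels, and bars are exact Poisson 95% intervals, which cover counting error only). Ccl5, Ccl20, Cxcl10 and Cxcl16 are high in WT clones 2 and 3 alone, Cx3cl1 is high in the other 3 libraries, and Cxcl1 and Cxcl5 vary far less.

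Of the 8 listed chemokines, 7 fell into 3 patterns, and Ccl2, present in traces, fell into none. Ccl5, Ccl20, Cxcl10 and Cxcl16 were highest in WT clones 2 and 3 and low in both TAZ-KO clones, but they were as low in WT clone 1. Cx3cl1 had the reverse pattern, and the neutrophil chemokines Cxcl1 and Cxcl5 varied far less between clones. No chemokine was called between TAZ-KO and WT, and Wwtr1 was not called either. By the edgeR quasi-likelihood test it was 0 of 8 chemokines at a Benjamini-Hochberg adjusted p of 0.05. The background was 0.0501% of all genes tested, or 6 of 11975. At an unadjusted p under 0.05, 3 were lower in TAZ-KO (Ccl5, Ccl20 and Cxcl16) and 0 were higher, where 9.41% of all genes were lower and 7.94% higher. DESeq2 called 1, Cxcl16, as lower, where it called 3.11% of genes lower and 5.25% in either direction, and limma-voom called 0. The levels of 2 chemokines, Ccl5 and Cxcl16, were lower in every TAZ-KO clone than in every WT clone and 0 were higher in every clone, where 18.6% of genes were lower and 18.7% higher in this sense. The median log2 fold change of TAZ-KO over WT of the 8 chemokines was -1.45, beside -0.03 for all genes tested, with 5 of 8 below 0. This median is a midpoint between Ccl2 (-0.32) and Cxcl16 (-2.59), and no chemokine lay near it. The genes below it were Ccl5, Ccl20, Cxcl10 and Cxcl16, which were as low in WT clone 1 as in TAZ-KO.

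Without WT clone 1, edgeR called 5 of 7 chemokines tested: Ccl5, Ccl20, Cxcl10 and Cxcl16 lower and Cx3cl1 higher in TAZ-KO. That fit called 19.7% of all genes lower and 19.1% higher, and it compares the TAZ-KO clones with WT clones 2 and 3 only. WT clone 1 had the highest Wwtr1 mRNA level of the 5 libraries, and its levels of these 5 chemokines lay with those of the TAZ-KO clones. This is a single clone, and a link between Wwtr1 and chemokine levels was not tested. With 1 surrogate variable estimated from the data as a further term, edgeR called 0 of the 8, and the log2 fold changes shrank to -0.70 for Ccl5, -0.34 for Ccl20, -0.56 for Cxcl16 and 0.42 for Cx3cl1 and turned to 1.61 for Cxcl10.

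Cxcl16, on chromosome 11 (chr11:70453983-70459984, minus strand, mm10), encodes the ligand of CXCR6, a receptor of activated and tissue-resident T cells, and also acts as a scavenger receptor. It stood at 4.75, 33.4 and 42.8 CPM in WT clones 1 to 3 and at 4.30 and 4.67 CPM in the TAZ-KO clones. WT clones 2 and 3 were far above the rest, and WT clone 1 exceeded TAZ-KO clone 2 by less than counting error, with 70 counts in each. The WT mean was 27.0 ± 19.8 CPM (SD, n = 3) and the TAZ-KO mean 4.48 ± 0.264 CPM (SD, n = 2), a 6.02-fold lower mean in TAZ-KO, with a log2 fold change of -2.59 (SE 0.89, edgeR adjusted p = 0.25). DESeq2 gave -2.59 (SE 0.77, adjusted p = 0.0225), and edgeR without WT clone 1 gave -3.08 (SE 0.23, adjusted p = 0.00026).

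Ccl5 (chr11:83525778-83530518, minus strand), also known as RANTES, draws T cells, monocytes and NK cells. Its levels were 0.746, 5.40 and 5.37 CPM in WT clones 1 to 3 and 0.595 and 0.667 CPM in the TAZ-KO clones. The groups did not overlap, but the counts behind the lower levels were few, 11 in WT clone 1 and 9 and 10 in the TAZ-KO clones, and the counting interval of WT clone 1 (0.372 to 1.33 CPM) held both TAZ-KO values. The WT mean of 3.84 ± 2.68 CPM (SD, n = 3) was 6.08 times the TAZ-KO mean of 0.631 ± 0.0511 CPM (SD, n = 2), at a log2 fold change of -2.59 (SE 0.92, edgeR adjusted p = 0.26). Without WT clone 1 the log2 fold change was -3.07 (SE 0.43, edgeR adjusted p = 0.00184).

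Ccl20 (chr1:83116766-83119167, plus strand), the ligand of CCR6 on Th17 cells, regulatory T cells and immature dendritic cells, had counts in WT clones 2 and 3 and almost none elsewhere. Its counts were 1, 210 and 80 in WT clones 1 to 3 and 4 and 0 in TAZ-KO clones 1 and 2, that is 0.0678, 12.9, 4.93 and 0.264 CPM, and, for TAZ-KO clone 2, no count, which allows up to 0.20 CPM by the limit of 3 counts (0.246 CPM as the upper end of the central 95% Poisson interval). WT clone 1 was as low as the TAZ-KO clones, so the groups overlapped. Ccl20 was also the chemokine in which WT clones 2 and 3 differed most from each other as a ratio. The log2 fold change was -5.41 (SE 2.04, edgeR adjusted p = 0.27), a fitted value that depends on how the near-empty libraries are handled. It was -5.98 (SE 0.88, edgeR adjusted p = 0.00229) without WT clone 1.

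Cxcl10 (chr5:92346638-92348889, minus strand), an interferon-induced chemokine that draws CXCR3-bearing T and NK cells, had 1, 99 and 75 counts in WT clones 1 to 3, or 0.0678, 6.07 and 4.63 CPM. In TAZ-KO clones 1 and 2 it had 11 and 2 counts, or 0.727 and 0.133 CPM. WT clones 2 and 3 were the high libraries, and WT clone 1 was the lowest of all 5. The log2 fold change was -3.04 (SE 1.54, edgeR adjusted p = 0.35), and without WT clone 1 it was -3.61 (SE 0.65, edgeR adjusted p = 0.00466).

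Cx3cl1 (chr8:94772009-94782427, plus strand) encodes fractalkine, the ligand of CX3CR1 on monocytes, NK cells and cytotoxic T cells. It was by far the most counted chemokine, at 453.0, 51.8 and 61.7 CPM in WT clones 1 to 3 and at 292 and 616.5 CPM in the TAZ-KO clones. WT clones 2 and 3 were the low libraries, and WT clone 1 lay between the TAZ-KO clones, so that the groups overlapped. The TAZ-KO mean of 454.2 ± 229.4 CPM (SD, n = 2) was 2.41 times the WT mean of 188.8 ± 228.8 CPM (SD, n = 3). The WT clones alone spanned more than this difference between the means, and the log2 fold change was 1.27 (SE 0.96, edgeR adjusted p = 0.50). Without WT clone 1 it was 3.00 (SE 0.34, edgeR adjusted p = 0.0009).

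**Figure D2:**
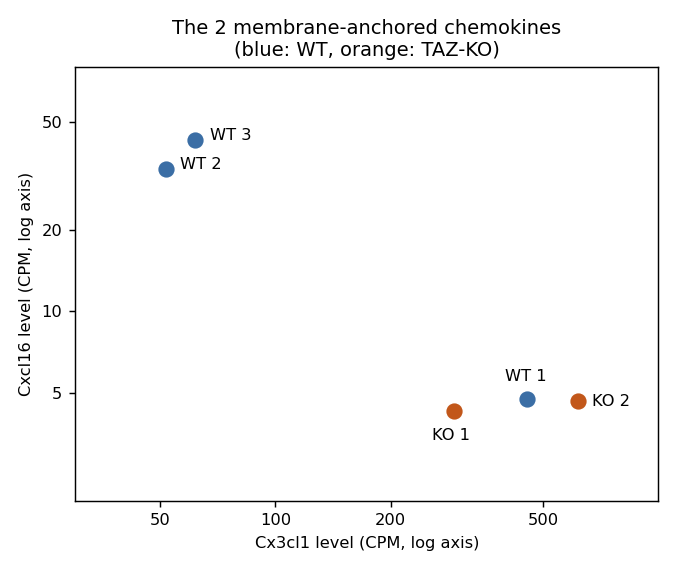
Level of Cxcl16 against that of Cx3cl1 (both CPM, log axes), 1 point for each of the 5 libraries (blue WT, orange TAZ-KO, each labelled by clone). WT clones 2 and 3 sit at high Cxcl16 (33.4 and 42.8 CPM) and low Cx3cl1, and WT clone 1 sits with the TAZ-KO clones at 4.30 to 4.75 CPM of Cxcl16.

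In the plot of both membrane-anchored chemokines, WT clones 2 and 3 lay apart from WT clone 1 and both TAZ-KO clones. Cxcl16 counts came to 64.6% and 69.3% of Cx3cl1 counts in WT clones 2 and 3. They came to 1.05% in WT clone 1 and to 1.47% and 0.758% in TAZ-KO clones 1 and 2. These shares do not depend on how the libraries were scaled.

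Cxcl1 and Cxcl5 encode ligands of CXCR2, the receptor by which neutrophils are recruited, and lie in the chemokine cluster of chromosome 5 (chr5:90891241-90893115 and chr5:90759360-90761624, both plus strand). Cxcl1 stood at 18.8, 19.9 and 12.6 CPM in WT clones 1 to 3 and at 21.9 and 18.4 CPM in the TAZ-KO clones. Cxcl5 stood at 17.3, 14.8 and 10.4 CPM in WT and at 15.3 and 14.9 CPM in TAZ-KO. All libraries were within a narrow band for both genes, WT clone 3 was the lowest in each, and WT clone 1 did not stand apart. The log2 fold changes were 0.23 (SE 0.29, edgeR adjusted p = 0.68) for Cxcl1 and 0.09 (SE 0.30, edgeR adjusted p = 0.88) for Cxcl5, with neither called, also without WT clone 1 (0.31 and 0.26, edgeR adjusted p = 0.39 and 0.44).

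Ccl2 (chr11:82035571-82037453, plus strand), the CCR2 ligand that draws monocytes, was present in traces. It had 17, 5 and 7 counts in WT clones 1 to 3 and 1 and 14 counts in the TAZ-KO clones, or 1.15, 0.307, 0.432, 0.0661 and 0.934 CPM. The TAZ-KO clones were the lowest and the second highest library, and the groups overlapped throughout (log2 fold change -0.32, SE 1.05, edgeR adjusted p = 0.89). The TAZ-KO clones differed from each other beyond counting error, with 95% Poisson intervals of 0.00167 to 0.368 and 0.511 to 1.57 CPM, and no difference between the groups was detectable.

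**Figure D3:**
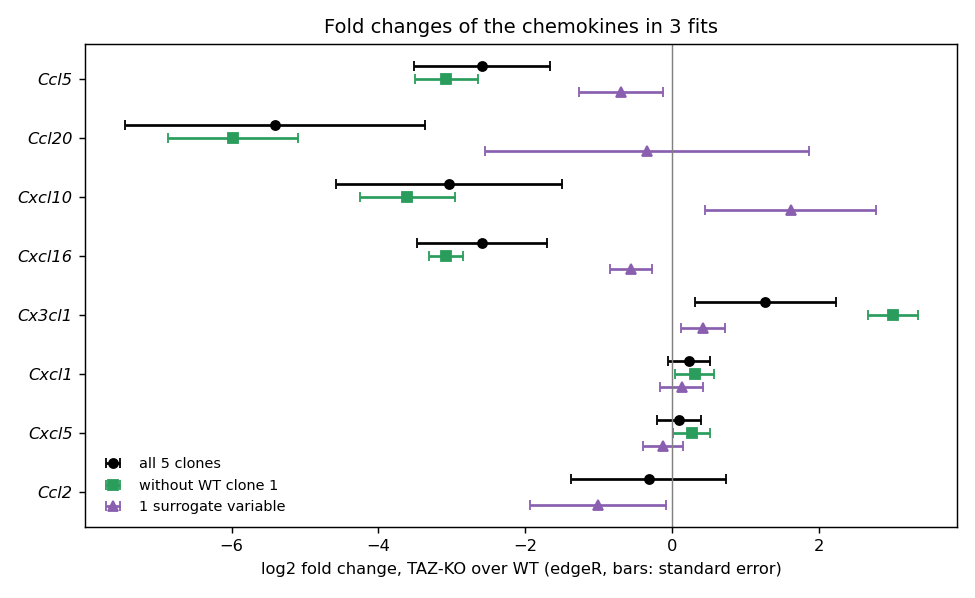
Log2 fold change of TAZ-KO over WT for the 8 listed chemokines with all 5 libraries (black), without WT clone 1 (green) and with 1 surrogate variable as a further term (purple) (edgeR; bars are standard errors; Ccl2 was not tested without that clone). Leaving the clone out moved Cx3cl1 from 1.27 to 3.00 and shortened the error bars of Ccl5, Ccl20, Cxcl10 and Cxcl16, whereas the surrogate variable moved all 5 towards 0, and Cxcl10 past it to 1.61.

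Divided by the length of their merged exons, so that genes can be set beside each other, Cx3cl1 was the highest chemokine in all 5 libraries. Its levels were 115.3, 13.2 and 15.7 CPM per kb in WT clones 1 to 3 and 74.3 and 156.9 CPM per kb in the TAZ-KO clones. The next in order was Cxcl1 in WT clone 1 and both TAZ-KO clones (10.0, 11.7 and 9.79 CPM per kb), followed by Cxcl5 and then Cxcl16. In WT clones 2 and 3 the next was Cxcl16 (11.1 and 14.2 CPM per kb), ahead of Cxcl1, and in WT clone 2 it differed little from Cxcl1 (10.6 CPM per kb) and from Cx3cl1. The methods describe a library protocol that reads transcript ends while the labels name an mRNA protocol, and in the former case length should not be divided out. By CPM alone Cx3cl1 was also the highest in every library.

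The genes next to the chemokines were listed by position, the nearest 2 on each side among the genes tested. Genes too low to test were passed over. Med11, a Mediator subunit whose gene lies 256 bases from Cxcl16, stood at 13.8, 12.0 and 13.9 CPM in WT clones 1 to 3 and 15.5 and 13.1 CPM in TAZ-KO, with none of the range of Cxcl16. Beside Cxcl10, in contrast, Sdad1 stood at 61.5, 155.8 and 141.6 CPM in WT and 60.7 and 66.6 CPM in TAZ-KO, and Scarb2, a lysosomal membrane protein, at 30.5, 68.0 and 71.1 CPM in WT and 32.9 and 31.8 CPM in TAZ-KO. Both were high in WT clones 2 and 3 and overlapped between the groups through WT clone 1. Naaa, also beside Cxcl10, stood at 6.44, 24.7 and 15.6 CPM in WT and 12.6 and 14.3 CPM in TAZ-KO. Coq9, beside Cx3cl1, was high in WT clones 2 and 3, where Cx3cl1 was low (23.3, 78.0 and 55.1 CPM in WT, 21.75 and 23.55 CPM in TAZ-KO). No rule chose the neighbours named, and the share of all genes with such a pattern was not counted. Beside Ccl5, the metalloproteinase gene Mmp28 was at 1.70, 6.26 and 4.13 CPM in WT and 1.06 and 0.667 CPM in TAZ-KO, while Taf15 had a log2 fold change of -0.03. None of these neighbours was called by edgeR. Over all genes of chromosomes 1, 5, 8 and 11, which carry the listed chemokines, the median log2 deviation of a library from the mean of the 5 ran from -0.12 in WT clone 1 to 0.13 in WT clone 3, both on chromosome 1.

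Genes of the surrounding pathway were counted in 8 lists of 127 genes, of which 78 were listed in the table and 70 tested. edgeR called 0 of the 70, against 0.0501% of all genes, and limma-voom called 0. At an unadjusted p under 0.05, 4 were higher and 7 lower in TAZ-KO, where 7.94% of all genes were higher and 9.41% lower. DESeq2 called 2 higher and 3 lower, where it called 5.25% of all genes in either direction. When WT clone 1 was left out, edgeR called 18 higher and 13 lower, where 19.1% of all genes were higher and 19.7% lower. These shares over all genes are the background for each list below. The lists are small, and nothing is read from a count in 1 list. Genes of a list were named only if both TAZ-KO clones lay beyond every WT clone, as 18.7% of all genes did above and 18.6% below, so that the lack of overlap in the genes named is set by their choice. Of the other chemokine ligands, 5 of 32 were listed and 2 tested. Ccl6 stood at 0.949, 0.552 and 1.11 CPM in WT clones 1 to 3 and 0.331 and 0.534 CPM in TAZ-KO, levels too near the limit of detection for a comparison. Ccl25, the other ligand tested, was outside the naming rule and stood at 2.51, 6.69 and 2.22 CPM in WT and 4.10 and 3.54 CPM in TAZ-KO, with overlap. Ccl8, Ccl17 and Ppbp were listed at levels too low to test.

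Of 23 chemokine receptors, 7 were listed and 4 tested, and none was called. Ccr2, Cxcr2, Ccr6 and Cxcr6, through which CCL2, CXCL1 and CXCL5, CCL20 and CXCL16 act, had no entry, and Cx3cr1 was too low to test. Ackr3, a decoy receptor that takes up CXCL12, stood at 51.2, 66.4 and 88.1 CPM in WT and 108.4 and 92.1 CPM in TAZ-KO (log2 fold change 0.55, SE 0.27). Ccr10, a receptor of skin-homing lymphocytes, stood at 1.36, 1.90 and 1.67 CPM in WT and 3.83 and 2.80 CPM in TAZ-KO (log2 fold change 1.01, SE 0.41). Neither was called without WT clone 1. Cxcr3, the CXCL10 receptor, was picked out after its values were seen: it was at 26.1, 0.491 and 0.0617 CPM in WT clones 1 to 3 and at 10.5 and 21.9 CPM in TAZ-KO, the reverse of Cxcl10. Its log2 fold change was 0.87 (SE 1.71, edgeR adjusted p = 0.80), and 5.83 (SE 0.68, edgeR adjusted p = 0.000972) without WT clone 1.

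**Figure D4:**
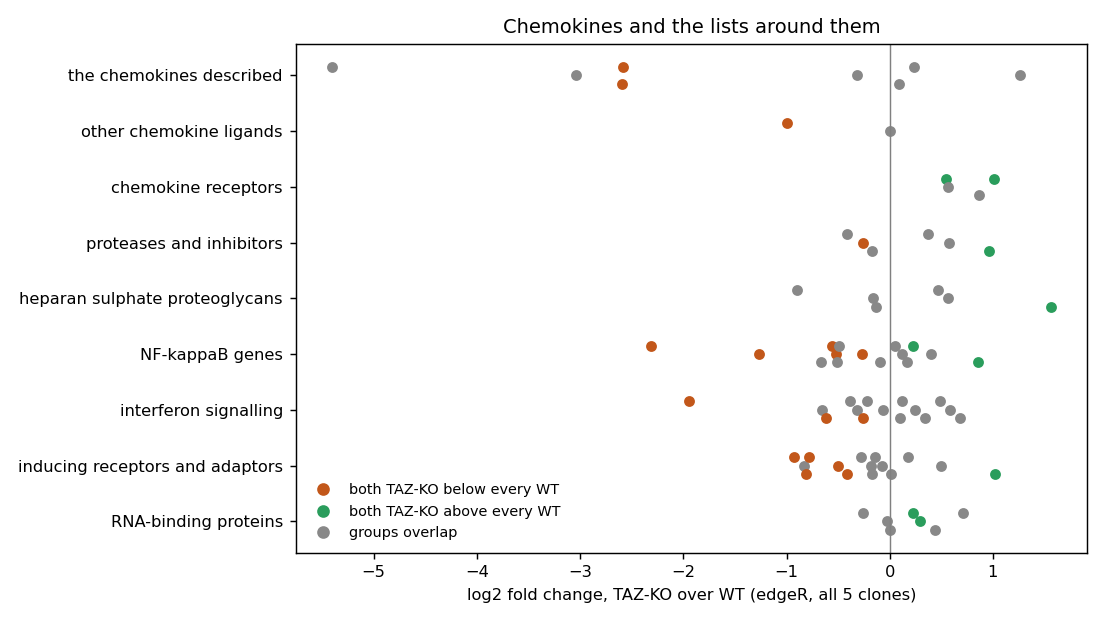
Log2 fold change of TAZ-KO over WT (edgeR, all 5 libraries) for each tested gene of the chemokine group and of the 8 pathway lists. Each point is 1 gene, orange where both TAZ-KO clones lie below every WT clone, green where both lie above and grey where the groups overlap. The chemokines have the lowest median, -1.45, a midpoint with no chemokine near it, and the medians of the pathway lists run from -0.50 (2 genes) to 0.72 (4 genes).

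Among genes that act on chemokines after translation, 6 of 10 proteases and inhibitors were tested and 6 of 10 heparan sulphate proteoglycans, and edgeR called none. Each list had 1 member higher and 0 lower at an unadjusted p under 0.05, DESeq2 called 1 higher in each, and without WT clone 1 edgeR called 3 higher in each, where 19.1% of all genes were. Timp1, an inhibitor of metalloproteinases, stood at 45.2, 49.0 and 60.0 CPM in WT and 103.1 and 97.4 CPM in TAZ-KO, at a log2 fold change of 0.96 (SE 0.20, edgeR adjusted p = 0.14, DESeq2 adjusted p = 0.00887) and of 0.88 (edgeR adjusted p = 0.00554) without WT clone 1. Adam17, a sheddase of CX3CL1, stood at 166.3, 133.9 and 144.0 CPM in WT and 130.8 and 117.1 CPM in TAZ-KO (log2 fold change -0.26) and was not called with or without WT clone 1. Sdc3, a cell-surface proteoglycan, stood at 84.6, 70.9 and 66.6 CPM in WT and 251.3 and 187.5 CPM in TAZ-KO. WT clone 1 sat near the other WT clones for Sdc3, unlike for Ccl5, Ccl20, Cxcl10, Cxcl16 and Cx3cl1. That it lay below both TAZ-KO clones was set by the naming rule. The log2 fold change of Sdc3, 1.57 (SE 0.22), had an adjusted p of 0.0902 in edgeR, 2.1e-06 in DESeq2 and 0.000822 in edgeR without WT clone 1.

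Of the 15 NF-kappaB factors, kinases and inhibitors, all were tested, and edgeR called none. At an unadjusted p under 0.05, 3 were lower and 1 higher in TAZ-KO, DESeq2 called 2 lower and 0 higher, and without WT clone 1 edgeR called 7 lower and 2 higher, where 19.7% of all genes were lower and 19.1% higher. Relb, a subunit of the non-canonical pathway, stood at 52.6, 111.2 and 98.4 CPM in WT and 31.9 and 40.8 CPM in TAZ-KO (log2 fold change -1.26, SE 0.36, edgeR adjusted p = 0.21, DESeq2 adjusted p = 0.0405), and without WT clone 1 the log2 fold change was -1.52 (edgeR adjusted p = 0.00105). It was highest in WT clones 2 and 3, as were the 4 chemokines that were low elsewhere. Bcl3, a nuclear IkappaB protein, stood at 16.1, 6.20 and 7.52 CPM in WT and 0.859 and 3.14 CPM in TAZ-KO, highest in WT clone 1 (log2 fold change -2.31, SE 0.71, edgeR adjusted p = 0.23, DESeq2 adjusted p = 0.0234), and its log2 fold change was -1.77 without that clone (edgeR adjusted p = 0.0368). Nfkbiz, another nuclear IkappaB protein, stood at 35.7, 21.1 and 20.6 CPM in WT and 44.5 and 49.0 CPM in TAZ-KO, the opposite direction, at a log2 fold change of 0.86 (edgeR adjusted p = 0.26) and of 1.17 (edgeR adjusted p = 0.00212) without WT clone 1.

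Of the 15 interferon signalling genes, all tested, edgeR called none, with 1 lower and 0 higher at an unadjusted p under 0.05. DESeq2 called 1 lower, Ifnar2, a subunit of the type I interferon receptor. Ifnar2 stood at 37.5, 75.3 and 70.3 CPM in WT clones 1 to 3 and 12.1 and 19.6 CPM in TAZ-KO (log2 fold change -1.94, SE 0.40, edgeR adjusted p = 0.14, DESeq2 adjusted p = 0.000636). WT clone 1 was intermediate, above both TAZ-KO clones and below the other WT clones, and without it the log2 fold change was -2.20 (edgeR adjusted p = 0.000772). Irf1, a transcription factor that acts on Cxcl10, stood at 80.6, 89.1 and 82.2 CPM in WT and 69.7 and 70.3 CPM in TAZ-KO, a log2 fold change of -0.26, and Ifngr2, a subunit of the interferon gamma receptor, at 41.2, 47.3 and 49.1 CPM in WT and 22.1 and 37.7 CPM in TAZ-KO (log2 fold change -0.62). In the fit without WT clone 1, edgeR called 4 of the list higher and 1 lower, where 19.1% of all genes were higher and 19.7% lower, and neither Irf1 nor Ifngr2 was called.

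Of the 15 receptors and adaptors that induce chemokines, edgeR called none, with 3 lower and 0 higher at an unadjusted p under 0.05, and DESeq2 called none. Without WT clone 1 edgeR called 5 lower and 2 higher, where 19.7% of all genes were lower and 19.1% higher. Il1r1, the interleukin-1 receptor, stood at 91.4, 54.2 and 44.0 CPM in WT and 31.7 and 34.8 CPM in TAZ-KO (log2 fold change -0.93, SE 0.35), with WT clone 1 the highest, and without that clone the log2 fold change was -0.56 (edgeR adjusted p = 0.0391). Traf6, an adaptor of the same pathway, stood at 40.2, 50.6 and 70.1 CPM in WT and 32.9 and 28.3 CPM in TAZ-KO (log2 fold change -0.81, SE 0.29), and without WT clone 1 the log2 fold change was -0.98 (edgeR adjusted p = 0.00833). Tlr3, a sensor of double-stranded RNA, went the other way, at 19.7, 15.6 and 6.66 CPM in WT and 32.5 and 24.1 CPM in TAZ-KO (log2 fold change 1.02, SE 0.46, edgeR adjusted p = 0.31), and without WT clone 1 the log2 fold change was 1.35 (edgeR adjusted p = 0.0251). Of the 7 RNA-binding proteins that set chemokine mRNA stability, 0 passed in either direction in edgeR and DESeq2, also at an unadjusted p under 0.05, and Elavl1 and Hnrnpd had log2 fold changes of 0.22 and 0.30. Without WT clone 1 edgeR called 3 of the 7 higher and 0 lower, where 19.1% of all genes were higher and 19.7% lower, and neither Elavl1 nor Hnrnpd was called.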

How the data were processed

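RNA was sequenced from 3 WT and 2 TAZ-KO cultures of 4T1 cells. According to the methods, the authors used the UTAP pipeline, with trimming by cutadapt, alignment by STAR and a count of reads per gene. DESeq2 and mm10 are named in the processing notes of the submitters. They deposited raw counts per gene, used here in every test. The deposited normalised signal (counts divided by size factors), the deposited regularised log2 values and the authors' own comparison, deposited as log2 fold change, p-value and adjusted p-value, were not used. The labels name an mRNA library protocol, and the methods a barcoded transcript-end protocol. Whether strand was used in counting was not given in the sources used here. A surrogate-variable batch correction is named without its terms.

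Genes were tested with edgeR 4.0.16 in R 4.3.3 (quasi-likelihood F-test) with TMM, filterByExpr by group and genotype as the only term, over all genes, with Benjamini-Hochberg adjustment at 0.05. A standard error is the absolute log2 fold change over the square root of its F statistic. Each library is 1 clone, and the p-values rest on the variation among these clones only. Poisson intervals (95%) and count floors cover counting error only. Other settings were edgeR with the size factors of DESeq2 or with total counts, no filter or a filter of 50 counts in at least 2 libraries, limma-voom (limma 3.58.1), DESeq2 1.42.0, the replicate block, 1 surrogate variable (sva 3.50.0), leaving out each library and thresholds of 0.01 and 0.1. The edgeR step was tested on simulated data with 200 changed genes. The spread between clones was set low there so that changes could be recovered, so that test does not measure power or error at the spread seen here. The deviations of same-numbered libraries from their group means had correlations of -0.12 and -0.12. With 2 TAZ-KO libraries, the deviations of one mirror those of the other, so these values cannot tell whether the numbers pair the clones. Gene coordinates (mm10) came from GENCODE. Pathway genes were named by rule, up to 3 of a list by size of change among those with every TAZ-KO clone beyond every WT clone. The members and lists were chosen with earlier results of these data known.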

Additional observations from a re-analysis of the deposited data

How the results depend on the processing

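The count of chemokines called was 0 with edgeR, 1 (lower) with DESeq2, and 0 to 5 when each library was left out in turn (0 to 1 higher and 0 to 4 lower), the 5 coming without WT clone 1. At an unadjusted p under 0.05, an alternative added after seeing the data, it was 3. Of the 70 pathway genes tested, 0 were called with edgeR and 5 with DESeq2 (Bcl3, Ifnar2, Relb, Sdc3 and Timp1). With 1 surrogate variable 5 were called (Bcl3, Ifnar2, Il1r1, Sdc3 and Timp1), where 483 of all 11975 genes were. At an adjusted p of 0.1 it was 1 (Sdc3), and 0 to 31 when each library was left out, the 31 without WT clone 1. The log2 fold change of Ccl2 turned to 0.60 without TAZ-KO clone 1, with a range of -3.09 to 0.60 when each library but WT clone 1, without which Ccl2 was not tested, was left out. That of Cxcl5 turned to -0.082 with the replicate block and -0.13 with 1 surrogate variable, with a range of -0.0888 (without WT clone 3) to 0.264 when each library was left out, and that of Cxcl10 to 1.61 with 1 surrogate variable. None of these was called, and the cause was not tested. Of 100 values of a chemokine under an alternative, 89 kept direction and call, 6 gained a call and 5 turned. With the replicate block edgeR called 0 chemokines and 0 of all genes. Leaving out WT clone 1 raised the count of all genes called from 6 to 4598. Depth limits Ccl2, Ccl5, Ccl20 and Cxcl10, which had at most 17 counts in WT clone 1 and in the TAZ-KO clones.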
